A study of Homo sapiens with 6 samples.

Results

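The genes described here encode enzymes that build mucin-type O-glycans, the sugar chains that cover mucins. The members are 50 genes chosen by function, with earlier results of these data known, and sorted by their step in the pathway. Of these, 49 had at least 1 probe set named for that gene alone, out of 19775 such genes on the array. They were measured in LS174T cells, an established human colon adenocarcinoma line that secretes mucin, with Affymetrix U133 Plus 2.0 oligonucleotide arrays. There were 6 cultures with 1 array each, all grown in the same serum-containing medium and treated for 48 h, 3 of them with DMSO as vehicle and 3 with 250 nM CompE. The labels give only the abbreviation CompE, which commonly stands for Compound E, a drug that blocks gamma-secretase and with it the cleavage that activates Notch receptors. The labels call the cultures biological replicates of this 1 line. RNA was taken from whole cultures, so fewer cells of a kind and less RNA per cell cannot be told apart.

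O-glycan synthesis starts in the Golgi, where a GALNT enzyme links N-acetylgalactosamine to a serine or threonine of the protein, which makes the Tn antigen. Other enzymes then add galactose or N-acetylglucosamine to form a core, lengthen it with further sugars, and end the chain with sialic acid, fucose, sulfate or a blood group sugar. Several enzymes compete for the same acceptor: sialic acid added directly to Tn gives sialyl-Tn, an antigen often seen on colon cancer mucins, and it stops further growth of the chain. In the normal colon, goblet cells carry long, branched and sulfated chains on the mucin MUC2.

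The treatment was visible in HES1, a repressor gene that Notch induces, whose intensities were 804, 872 and 756 in DMSO and 307, 306 and 256 in CompE (mean ± SD 811 ± 58.2 and 289 ± 29.2, n = 3 each). The fall was 2.81-fold (limma adjusted p = 0.00198). Intensities are the authors' probe set values on a linear scale, and they are not comparable between genes. All 10 markers of colon epithelium lay above the level of the Bacillus control probe sets (45.7) on all 6 arrays. The same held for 1 of 7 fibroblast markers, 1 of 5 endothelial markers and 1 of 7 measured leukocyte markers, the last being LYZ, which Paneth cells also express. Markers of other cells were thus not all at background: COL1A1 was at 84.4 to 117 and PECAM1 at 143 to 194, and COL1A2 and DCN exceeded the Bacillus level on 5 of 6 arrays. At or below it on every array were 3 fibroblast, 4 leukocyte and 2 endothelial markers, among them PDGFRB, PTPRC and CDH5. The summed leukocyte markers ran from 1631 to 1945 in DMSO and from 1281 to 1546 in CompE, mostly through LYZ, and their part in any result was not tested. The 3' over 5' signal ratio of ACTB, which reflects RNA integrity, was 1.44 ± 0.0201 in DMSO and 1.51 ± 0.0193 in CompE, and that of GAPDH was 0.968 ± 0.0106 and 0.946 ± 0.0264 (SD, n = 3 each). Hybridisation controls were 0.14 log2 units brighter in CompE. The part of either in the results below was not tested, except through the scaling reported with the counts.

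Of the 49 genes with a probe set, 33 lay above the Bacillus level in both groups, and few passed the test. Of the 50 genes, 40 were bright enough to be tested, 9 were too dim, and GALNT4 was named only on probe sets that carry several genes. Among the 40, 2 rose, 3 fell and 35 did not pass (limma, Benjamini-Hochberg adjusted p under 0.05 over 14308 genes). B3GNT5 and ST6GALNAC1 rose, and GCNT3, ST3GAL1 and ST3GAL2 fell. The 5 calls are 12.5% of the members tested, against 7.14% of all genes tested. Rises made up 5.0% against 4.56% over all genes, which is close to the background, and falls 7.5% against 2.57%. The members were chosen with earlier results of these data known, so these shares are descriptions. The median log2 change of the tested members was 0.02, and that of all genes was also 0.02. The log2 change was under 0.3 in size in 30 of the 40. The arrays of the 2 groups did not overlap for 16 of the 40 (40%), against 32.2% of all genes. Centring the arrays on their hybridisation controls moved the calls. It shifted the median of all genes to -0.12, and the members then held 1 rise and 10 falls, and all genes 340 rises and 1552 falls in place of 653 and 368. Under it, 12 of the 40 members changed sign. Leaving out any 1 array reduced the members to between 0 and 1 rises and between 1 and 2 falls.

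**Figure D1:**
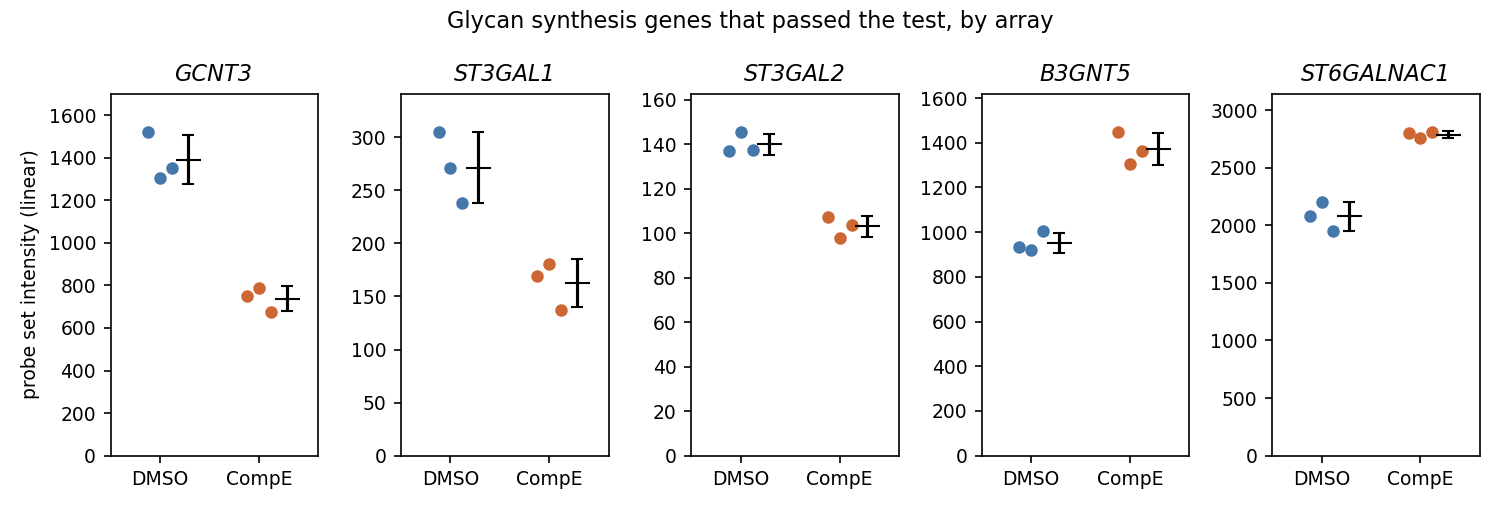
Probe set intensity (linear axis from 0) of the 5 members that passed, on 3 DMSO and 3 CompE arrays; points are arrays, and the black mark with its bar is the mean ± SD. GCNT3, ST3GAL1 and ST3GAL2 were lower on all 3 CompE arrays and B3GNT5 and ST6GALNAC1 were higher, with no overlap between the groups.

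No initiating enzyme passed. Of 12 GALNT genes, limma tested 9 and called 0, and before adjustment 1 higher and 2 lower genes had p under 0.05. Over all 14308 genes, 2145 higher and 1366 lower reached this (24.5% in either direction). The log2 changes of the 9 GALNT genes ran from -0.45 to 0.18, with a median of 0.03. The smallest p belonged to GALNT1, a widely expressed initiating enzyme, at 1890.4, 1916 and 1827 in DMSO and 1673, 1517 and 1459.9 in CompE. The groups did not overlap, and the log2 difference of -0.28 ± 0.07 (SE) did not pass (adjusted p = 0.0661). Its 3 other probe sets past the filter gave smaller differences, -0.17, -0.09 and -0.06, and the mean over its probe sets gave -0.15. GALNT3, an initiating enzyme of secretory epithelia, differed by 0.01 with a 95% interval of -0.10 to 0.12. GALNT6 stood at -0.45 (adjusted p = 0.127) on the probe set that represents it. Its other probe set, singled out after its values were seen, went from 158 ± 10.7 to 119 ± 4.12 (n = 3; limma adjusted p = 0.0390 in a fit of single probe sets). GALNT7, which acts on peptides that already carry a sugar, had the highest positive difference of the step, 0.18 (adjusted p = 0.189). GALNT8 and GALNT14 were at or below the Bacillus level on every array.

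Of 5 core genes tested, the branching gene GCNT3 fell and no other member passed (falls made up 2.57% of all genes). With unadjusted limma p under 0.05 there were 0 higher and 3 lower core genes. Over all 14308 genes there were 2145 higher and 1366 lower (24.5% in either direction). The 3 lower core genes include B3GNT6, which was near the Bacillus level and whose groups overlapped. GCNT3 encodes the mucin-type core 2 enzyme, which adds a branch to core 1 and can also form core 4. Its intensities were 1519, 1302 and 1350.2 in DMSO and 751, 789.9 and 673 in CompE. All 3 CompE arrays lay far below the lowest DMSO array. The fall was 1.88-fold (1390.5 ± 114 to 738 ± 59.3, mean ± SD, n = 3 each; log2 change -0.91 ± 0.09 SE; limma adjusted p = 0.00585). Among all 14308 genes this change was at percentile 0.391. Leaving out each array in turn kept the call, with adjusted p between 0.0207 and 0.0359. GCNT3 has 1 probe set, so no other one bears on it.

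C1GALT1 encodes the synthase of core 1. It was at 327, 330.4 and 315 in DMSO and 284, 285 and 271 in CompE, without overlap. Its log2 difference of -0.21 (95% interval -0.33 to -0.09) did not pass (adjusted p = 0.0631). Its other probe sets gave -0.21 and -0.02. C1GALT1C1, the chaperone that C1GALT1 needs, differed by 0.07 (95% interval -0.08 to 0.21). GCNT1, the leukocyte-type core 2 enzyme, differed by -0.06 (95% interval -0.30 to 0.18). B3GNT6, the synthase of core 3, the typical core of normal colon mucin, was near the Bacillus level: 69.1, 54.0 and 42.6 in DMSO and 26.5, 28.5 and 47.6 in CompE. The groups overlapped, and the difference did not pass (adjusted p = 0.191). GCNT4, another core 2 enzyme gene, was below the Bacillus level on every array.

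In chain extension 1 of 7 tested genes rose, 0 fell and 6 did not pass, against 4.56% rises and 2.57% falls over all genes. Unadjusted limma p was under 0.05 for 3 higher and 0 lower of the 7. Over all 14308 genes it was so for 2145 higher and 1366 lower (24.5% in either direction). The gene that rose was B3GNT5, which adds N-acetylglucosamine to lactosylceramide and so starts lacto-series glycolipids, a chain related to those of mucins but carried on lipid. It stood at 934, 919 and 1004 in DMSO and 1447, 1306 and 1362 in CompE, so that every CompE array was brighter than the brightest DMSO array. The rise was 1.44-fold (952 ± 45.6 to 1372 ± 70.8, n = 3 each; log2 change 0.53 ± 0.06 SE; limma adjusted p = 0.0115). Of its other probe sets, a dimmer one rose by 0.38 and one near the Bacillus level gave -0.03. With the mean over its probe sets the change was 0.29 and the call was lost (adjusted p = 0.145). It was also lost without DMSO replicate 1 (0.0503), DMSO replicate 2 (0.0545) or CompE replicate 1 (0.0534).

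B3GNT2, which builds polylactosamine, was at 612, 648 and 661 in DMSO and 750.3, 758 and 735 in CompE. Its difference of 0.22 did not pass (adjusted p = 0.0611), nor did that of B4GALT5, a galactosyltransferase that forms lactosylceramide (0.18, adjusted p = 0.124). For both genes the arrays of the groups did not overlap, which held for 3 of the 7 extension genes tested and 32.2% of all genes. B3GNT3, which extends core 1, differed by -0.03 (95% interval -0.27 to 0.20). The galactosyltransferase genes B4GALT1 and B4GALT4 gave -0.14 and 0.06. B3GNT7, which extends keratan sulfate chains, and GCNT2, which forms the branched I antigen, were below the Bacillus level on every array.

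The upstream sequences of GCNT3 and B3GNT5 are shown because they are the called members that the RefSeq promoter table holds, 1 from a gene that fell and 1 from a gene that rose. Each is the 250 bases before the annotated start (RefSeq, GRCh38.p14, plus strand, 5' to 3'), at chr15:59611533-59611782 for GCNT3 and chr3:183253003-183253252 for B3GNT5. Capitals mark CpG dinucleotides.
GCNT3: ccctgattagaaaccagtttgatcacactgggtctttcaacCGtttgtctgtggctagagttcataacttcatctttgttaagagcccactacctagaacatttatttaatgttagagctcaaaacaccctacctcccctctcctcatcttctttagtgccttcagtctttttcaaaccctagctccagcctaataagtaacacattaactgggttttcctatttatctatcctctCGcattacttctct
B3GNT5: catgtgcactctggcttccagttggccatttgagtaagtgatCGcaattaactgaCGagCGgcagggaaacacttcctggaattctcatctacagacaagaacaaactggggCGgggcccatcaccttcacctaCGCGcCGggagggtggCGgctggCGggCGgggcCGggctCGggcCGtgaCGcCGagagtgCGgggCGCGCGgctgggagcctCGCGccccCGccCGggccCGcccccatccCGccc
The windows differ in composition: that of GCNT3 held 2 CpG and 40.4% G and C, and that of B3GNT5 held 25 CpG and 68.0%. The median over 35116 promoter windows of this length was 11 CpG and 58.0%. Both strands were searched for 4 motifs: TGGGAA, the core of RBPJ sites, CACNAG, the N-box, CACGNG, a site class of HES and HEY factors that overlaps the N-box at CACGAG, and CAGCTG, an E-box of activating bHLH factors. Neither window held a match, which says only that these letters do not occur in these 250 bases. Over the 62 windows of the 38 members in the table, TGGGAA was found in 19.4% (20.8% of all windows) and CACNAG in 32.3% (32.0%). CACGNG was found in 32.3% (26.7%) and CAGCTG in 6.45% (14.0%). These shares are descriptions, and a match is not a binding site.

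Sialylation held 3 of the 5 calls, in both directions. Of 10 sialyltransferase genes tested, 1 rose, 2 fell and 7 did not pass, against 4.56% rises and 2.57% falls over all genes. Unadjusted limma p was under 0.05 for 3 higher and 3 lower of the 10. Over all 14308 genes it was so for 2145 higher and 1366 lower (24.5% in either direction). The 3 higher sialyltransferase genes include ST3GAL6, whose group means lay below the Bacillus level. Groups did not overlap for 6 of the 10, one of them the dim gene ST3GAL6, against 32.2% of all genes. ST6GALNAC1, which adds sialic acid to Tn and so makes sialyl-Tn, rose. Its intensities were 2080.2, 2203 and 1949 in DMSO and 2801, 2754 and 2807 in CompE. The 3 CompE arrays lay close together and above every DMSO array. The rise was 1.34-fold (2077 ± 127 to 2787 ± 29.2, n = 3 each; log2 change 0.43 ± 0.06 SE; limma adjusted p = 0.0170). Of 6 fits that each left out 1 array, 5 lost the call: those lacking DMSO replicate 1 (adjusted p = 0.0640) or 3 (0.0585), or CompE replicate 1 (0.0774), 2 (0.0576) or 3 (0.0567). It was also lost with no filter on dim probe sets (0.0529) and with arrays centred on hybridisation controls (log2 change 0.28, adjusted p = 0.0584).

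ST3GAL1 and ST3GAL2, which both add sialic acid to the galactose of core 1, fell. ST3GAL1 was at 305, 271 and 238 in DMSO and 169, 181 and 137 in CompE. The DMSO arrays spread widely, but none overlapped with CompE. The fall was 1.67-fold (271 ± 33.3 to 163 ± 22.5, n = 3 each; log2 change -0.74 ± 0.14 SE; limma adjusted p = 0.0346). Its 2 other probe sets gave -0.95 and -0.32 and did not pass. No fit that left out 1 array kept the call: adjusted p was 0.0977, 0.109 and 0.0671 when DMSO replicate 1, 2 or 3 was dropped, and 0.102, 0.0643 and 0.0703 for CompE replicate 1, 2 or 3. The change itself stayed between -0.83 and -0.63. It was also lost with no filter on dim probe sets (0.0882).

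ST3GAL2 was at 137, 145 and 138 in DMSO and 108, 98.1 and 104 in CompE. The arrays of each group lay close together, and the groups were well apart. The fall was 1.36-fold (140.1 ± 4.64 to 103 ± 4.77, n = 3 each; log2 change -0.44 ± 0.06 SE; limma adjusted p = 0.0137). All 4 of its probe sets past the filter were lower in CompE (-1.03 to -0.28), although 1 passed. The call was lost without DMSO replicate 1 (0.0506), 2 (0.0602) or 3 (0.0581).

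ST6GALNAC4, which adds a second sialic acid to sialylated core 1, was at 244, 243 and 221 in DMSO and 158, 204 and 175 in CompE. The groups did not overlap, and the difference of -0.40 did not pass (adjusted p = 0.0809). Its 3 probe sets past the filter were all negative (-0.43 to -0.16). ST6GAL1, which sialylates mainly N-glycans, stood at 0.21 (adjusted p = 0.0848), with a dimmer probe set at -0.13. ST3GAL3 and ST3GAL4, which act on the ends of longer chains, gave -0.33 (adjusted p = 0.374) and 0.00 (95% interval -0.40 to 0.40). For ST3GAL3 the mean over its probe sets gave -0.49 and passed (limma adjusted p = 0.0301). Its other probe sets past the filter lay near or below the Bacillus level. ST3GAL6, ST6GALNAC2 and ST6GALNAC6 had group means at or below the Bacillus level, so no fold is given for them.

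**Figure D2:**
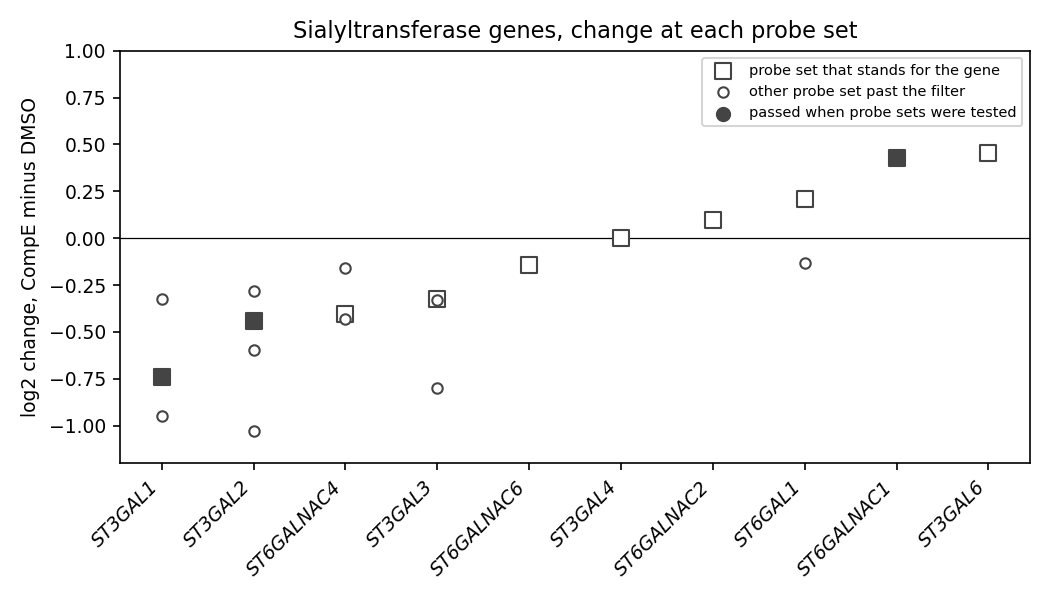
Log2 change (CompE minus DMSO) of each probe set past the filter for the 10 sialyltransferase genes; squares stand for the gene, circles are its other probe sets, and filled symbols passed when probe sets were tested. Those of ST3GAL1, ST3GAL2, ST6GALNAC4 and ST3GAL3 all lie below 0, and the single one of ST6GALNAC1 lies at 0.43. Also below 0 are the single probe sets of ST3GAL4, barely, and of ST6GALNAC6, which was below the Bacillus level. The circles of ST3GAL3 are probe sets near or below that level.

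Enzymes that share an acceptor, act in sequence or act on different branches were also compared as ratios within an array, in pairs chosen after their values were seen and so with no test. Relative to the DMSO mean, the log2 ratio of ST6GALNAC1 to C1GALT1, which use the same Tn acceptor, was 0.62, 0.60 and 0.69 on the CompE arrays (mean 0.64 ± 0.05 SD, against an SD of 0.05 in DMSO). The ratio of ST6GALNAC1 to ST3GAL1 was higher by 1.17 (SD 0.22 in CompE and 0.15 in DMSO). The ratio of GCNT3 to C1GALT1, the enzyme that makes its substrate, was lower by 0.70 on the log2 scale, at -0.70, -0.63 and -0.79. That of GCNT3 to GCNT1 was lower by 0.86, at -0.77, -0.70 and -1.10. For these 4 pairs no CompE array overlapped with a DMSO array. Each of the pairs holds a gene that had passed, so this separation in part repeats those calls. A shift of a whole array on the log2 scale cancels in such a ratio. For B3GNT6 to C1GALT1 the groups overlapped.

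**Figure D3:**
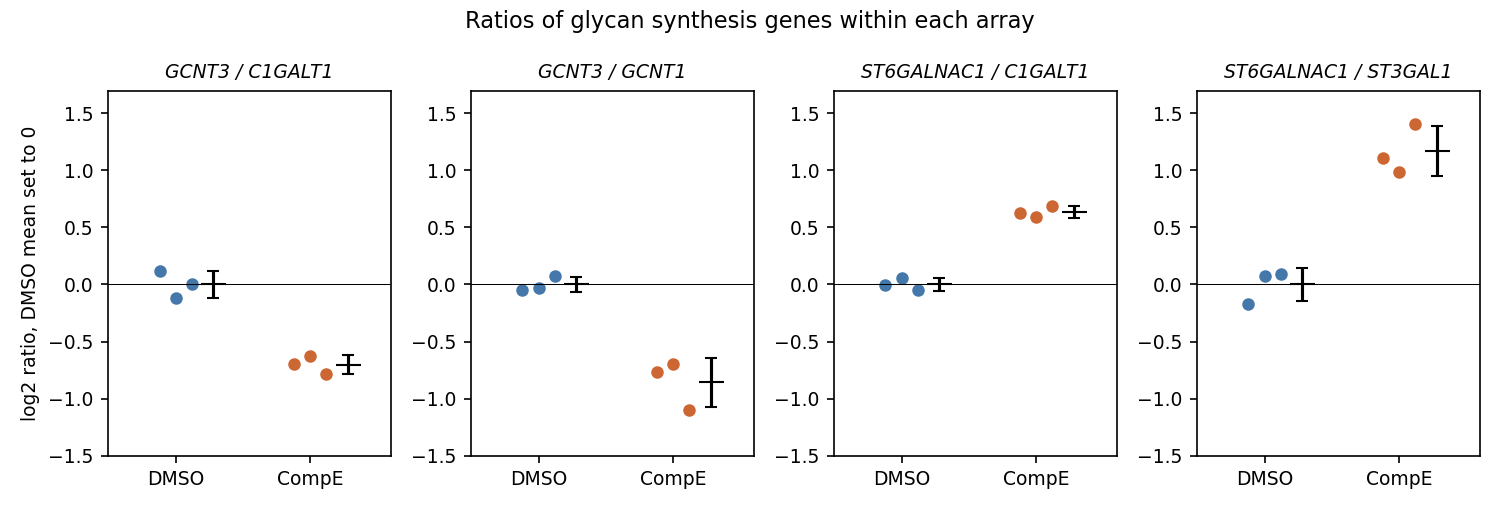
Log2 ratio of pairs of members on each array, with the DMSO mean of each pair set to 0; points are the 3 arrays of a group, and the black mark with its bar is the mean ± SD. CompE arrays lie below DMSO for GCNT3 over C1GALT1 and over GCNT1, and above for ST6GALNAC1 over C1GALT1 and over ST3GAL1.

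No fucosyltransferase gene passed. Of 6 tested, limma called 0, with changes from -0.22 to 0.06. Before adjustment, 0 higher and 2 lower of the 6 had p under 0.05. Over all 14308 genes, 2145 higher and 1366 lower did (24.5% in either direction). FUT3, the Lewis enzyme, was at 1599, 1559 and 1454 in DMSO and 1382, 1271 and 1317 in CompE. The groups did not overlap, and the difference of -0.22 ± 0.06 (SE) did not pass (adjusted p = 0.0981). FUT6, which fucosylates the ends of longer chains, gave -0.18 (adjusted p = 0.148), and 7 of its 8 probe sets were negative. FUT3 and FUT6 are closely similar genes, and most of these probe sets are of a type that can bind related transcripts, so their values are not independent. FUT1 and FUT2, which form the H antigen, gave -0.10 and 0.05, FUT4 gave 0.06, and FUT8, which fucosylates the core of N-glycans, gave 0.02 (95% interval -0.14 to 0.18).

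The 4 sulfotransferase members were too dim to test. CHST5 and CHST6, which sulfate N-acetylglucosamine, and GAL3ST1 and GAL3ST2, which sulfate galactose, all failed the filter and were below the Bacillus level on all 6 arrays in both groups. Over the 9 members that were measured but too dim, array values ran from 0 to 44.5. Of 3 capping genes tested, limma called 0, and 0 had p under 0.05 before adjustment. ABO, the blood group transferase gene, was at 48.9, 69.0 and 59.9 in DMSO and 53.9, 60.6 and 83.7 in CompE. The groups overlapped and the difference was 0.14 (adjusted p = 0.713), on a probe set whose type can also bind other transcripts. B4GALNT2, which makes the Sda antigen, and B4GALNT3 were below the Bacillus level, as was A4GNT, which caps gastric gland mucin.

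**Figure D4:**
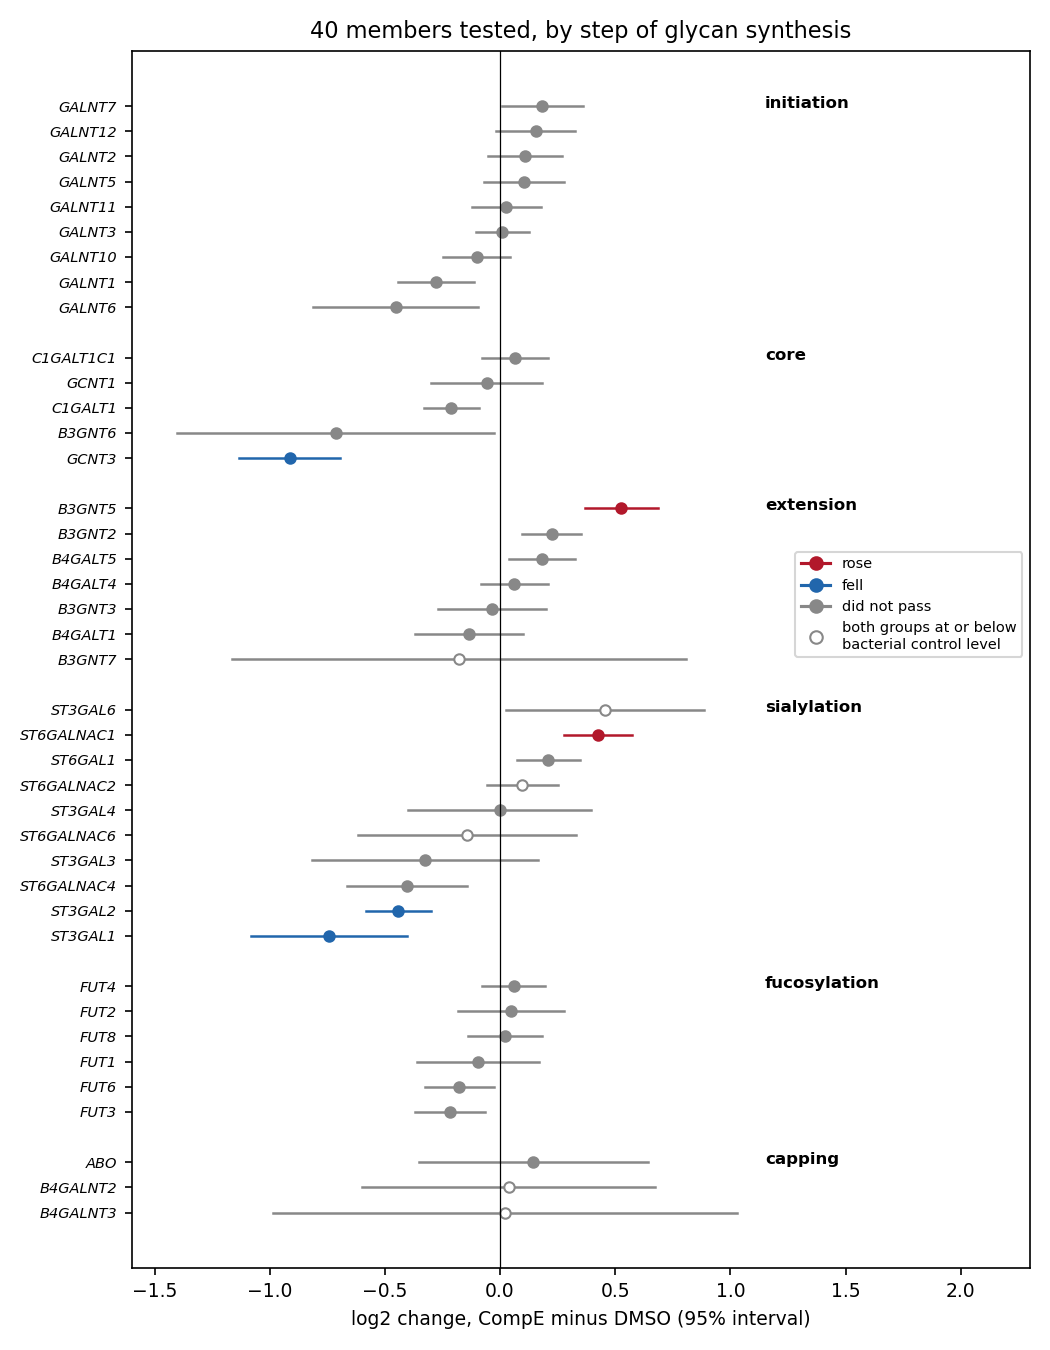
Log2 change (CompE minus DMSO) with its 95% interval from limma for the 40 members tested, grouped by step; red rose, blue fell, grey did not pass, and open points had both group means at or under the Bacillus level. Sulfation has no row because 0 of its 4 genes were bright enough, and the intervals of the 9 GALNT genes lie between -0.81 and 0.36.

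A wider list gave 1 call. It consisted of related transferases and donor supply genes, written by function with earlier results of these data known. The list of 59 gave 43 tested genes, of which limma called 1 rise and 0 falls (2.33%, beside 7.14% of all genes). Before adjustment, 5 higher and 4 lower of the 43 had p under 0.05. Over all 14308 genes, 2145 higher and 1366 lower did (24.5% in either direction). The gene that rose was B3GNT8, which builds polylactosamine on N-glycans, at 67.3, 73.0 and 60.5 in DMSO and 103, 124 and 103 in CompE. Every CompE array was above every DMSO array, a 1.64-fold rise (limma adjusted p = 0.0208). The call was lost when DMSO replicate 1 (0.0712), 2 (0.0522) or 3 (0.0686) or CompE replicate 1 (0.0668) or 3 (0.0542) was dropped, and with no filter (0.0603). Of 21 genes that make or transport the activated sugars and sulfate, limma called 0. Before adjustment, 3 higher and 4 lower of the 21 had p under 0.05, against 2145 higher and 1366 lower of all 14308 genes. Groups did not overlap for 11 of the 21 (52.4%), against 32.2% of all genes, and log2 changes ran from -0.24 to 0.26.

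**Figure D5:**
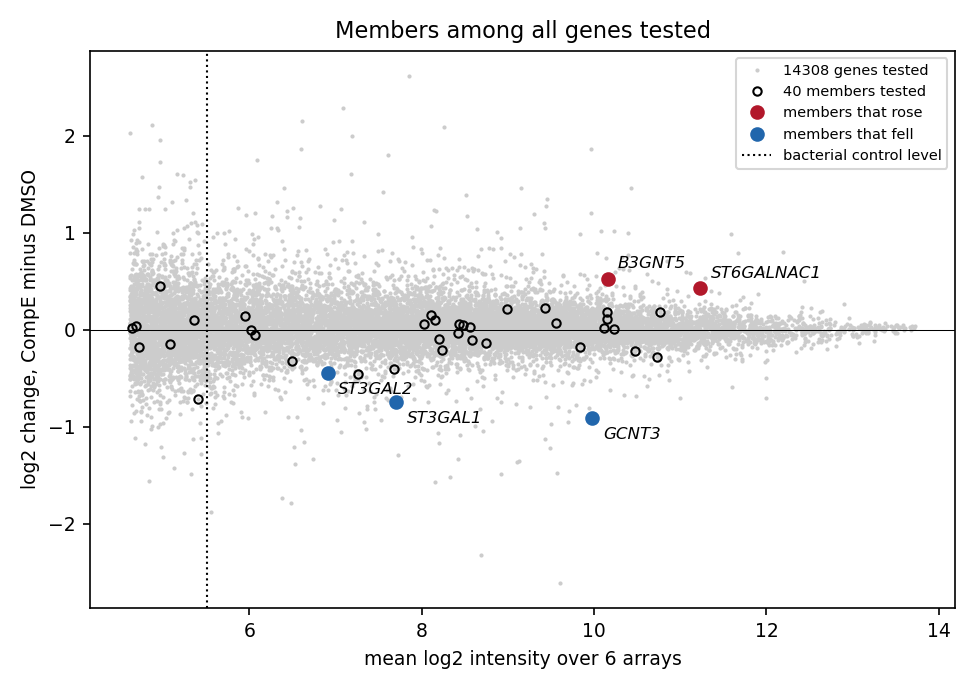
Log2 change (CompE minus DMSO) against mean log2 intensity over 6 arrays for 14308 genes (grey), with the 40 members tested as open circles and the 5 that passed in red (rose) and blue (fell); the dotted line is the Bacillus control level at 5.51. Most members lie within the grey band near 0, and GCNT3 lies at -0.91.

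Probe sets of 1 gene did not always move together. The 49 genes had 123 probe sets, 86 of them past the filter, and 25 genes had more than 1 past it. In 8 of these 25 the probe sets had both signs, and in 0 of them did probe sets pass in opposite directions. Tested as probe sets, 3 rose and 4 fell, beside 2.72% and 1.55% of all 26962 probe sets in that fit (4.28% in either direction). The 3 were those of ST6GALNAC1 and a pair of B3GNT5, and the 4 were those of GCNT3, ST3GAL1, ST3GAL2 and GALNT6.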

How the data were processed

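The authors amplified and biotin-labelled total RNA with a 3' in vitro transcription kit, per the labels, and normalized array intensities with dChip, per the series design text. Values deposited by the authors are linear intensities per probe set. The dChip version and its use of mismatch probes: not given in the sources used here. Before taking log2, every intensity under 1 was raised to 1. The 62 control probe sets and the lowest 40% of probe sets by mean log2 were left out (below 4.61, an intensity of 24.4). Probe sets with 1 gene in the platform annotation were kept, symbols were updated by Entrez identifier (41043 of 41097 matched), and the brightest probe set stood for its gene, which gave 14308 genes. CompE was compared with DMSO by limma 3.58.1 in R 4.3.3 (lmFit, eBayes, two-sided, all 6 arrays, no covariate), with Benjamini-Hochberg adjustment over these genes and a threshold of 0.05. The script was tested on simulated data. The Bacillus control level is the 95th percentile of the mean log2 values of 27 Bacillus probe sets (5.51, an intensity of 45.7). Precision is limited by the number of arrays: over all genes the median SE was 0.08.

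The members and lists were chosen with earlier results of these data known. Named genes are the members that passed, the member with the smallest p in each step where none passed, and, with levels or intervals, members that lie at the Bacillus level or have a stated role. The last were described after their values were seen. Alternatives were other filters, normalizations, floors, probe set rules and variance models, a replicate block, and leaving out each array.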

Additional observations from a re-analysis of the deposited data

How the results depend on the processing

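GCNT3 passed under 16 of 17 alternatives (log2 change -1.06 to -0.85), B3GNT5 under 13 of 18 (0.29 to 0.57), ST3GAL2 under 14 of 18 (-0.59 to -0.39), ST6GALNAC1 under 10 of 18 (0.28 to 0.47) and ST3GAL1 under 9 of 17 (-0.88 to -0.63), and none of these 5 changed sign. B3GNT8 passed under 10 of 17 (0.58 to 0.78). Genes with 17 alternatives had no probe set among the 10896 least variable ones. That setting picks probe sets by the spread within groups that limma also uses, so passing under it is partly built in. GALNT1 (-0.42 to -0.15) and FUT3 (-0.36 to -0.19) passed under 4 of 18 each: the stricter filter, hybridisation control centring, the least variable probe sets and the variance trend. ABO reversed to -0.039 without CompE replicate 3. Counts of calls moved more, and the cause was not tested beyond what each alternative changes by construction. With no filter there were 1 rise and 2 falls among 49 members, 242 and 121 among 19775 genes, and 0 and 0 among 53 on the related list. With the lowest 60% left out there were 4 rises and 7 falls among 33 members, 1117 and 634 among 10843 genes, and 3 and 2 among 35 on the related list. Quantile normalization gave 2 and 1 on the related list, and median centring and an offset of 16 gave 1 fall there. Centred on hybridisation controls, members had 1 rise and 10 falls, all genes 340 and 1552, and the related list 5 falls; 12 of the 40 members changed sign. The mean over probe sets gave 1 rise and 4 falls of members, one of them ST3GAL3, and 461 and 304 over all genes. The 10896 least variable probe sets, chosen for low spread, left fewer genes to test. They gave 7 and 6 among 24 members, 1761 and 1159 among 6858 genes, and 4 and 4 among 20 on the related list. An intensity trend with a robust prior gave 6 and 9 for members, 1402 and 852 over all genes, and 4 and 4 on the related list. With 1 array left out, members had 0 to 1 rises and 1 to 2 falls, all genes 162 to 352 and 90 to 167, and the related list 0 to 1 rises and 0 falls.

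Same-numbered arrays did not deviate together (correlations of 0.02, -0.10 and -0.02 across genes for numbers 1, 2 and 3), so the numbers were not taken as pairs. With the replicate block, 0 members rose and 0 fell, 70 genes rose and 32 fell over all genes tested, and 0 rose on the related list; adjusted p was 0.0545 for GCNT3, 0.0526 for B3GNT8, 0.0602 for ST3GAL1, 0.0777 for B3GNT5 and 0.102 for both ST3GAL2 and ST6GALNAC1. Signal over background limits the pathway's dim end: 15 members lay at or below the Bacillus level in both groups.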
